A study of Mus musculus with 4 samples.

Results

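The genes described here set the pace of the first gap phase of the cell cycle in mouse colon and in its tumours: the D-type cyclins Ccnd1, Ccnd2 and Ccnd3, their kinases Cdk4 and Cdk6, the kinase inhibitors Cdkn1a, Cdkn1b, Cdkn2a and Cdkn2b, and the transcription factor Myc. They are 10 named genes of 22180 that the value table resolves, each with 1 probe set annotated to a single symbol, and they were named by function, with earlier results of these data known. RNA was measured on 4 Affymetrix arrays that cover whole transcripts, and each combination of tissue and Dmt1 genotype had 1 array. The mice were C57BL/6 animals aged 3 months. Each array carries the genotype label CDX2 and the allele combination ApcF/+, so controls and Dmt1-targeted animals share both. They differ in Dmt1, a gene of iron import with the symbol Slc11a2, which was +/+ (wild-type below) or F/F. The tissue was either normal colon or colon tumour. The labels do not spell out what CDX2 stands for, nor in which cells the F alleles were recombined. The design text counts 7 wild-type and 4 F/F animals, but the sources used here do not say which animals each array holds or if RNA of several was mixed. With 1 array per group no single value has an error, and the number of arrays limits the precision.

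D-type cyclins accumulate when a cell receives a growth signal, bind Cdk4 or Cdk6, and these complexes phosphorylate the retinoblastoma protein, which releases E2F factors and commits the cell to DNA replication. The Ink4 inhibitors, p16 from Cdkn2a and p15 from Cdkn2b, block Cdk4 and Cdk6 directly, whereas the Cip/Kip inhibitors p21 (Cdkn1a) and p27 (Cdkn1b) act mainly on the kinases that follow. Myc raises transcription of genes for growth and cell cycle entry, and in the intestine Myc and Ccnd1 are known targets of the Wnt pathway, which the Apc protein restrains.

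The RefSeq promoter table of mouse build GRCm38.p6 held 10 windows for 7 of these genes. Ccnd1, Ccnd2 and Myc had no window there, so their promoters were not searched. Only the 250 bases before the annotated start were read. The E-box CACGTG, which Myc and its partner Max bind, was searched together with the TCF/LEF core CTTTGA of the Wnt pathway and 4 spellings of the E2F site (TTTCCCGC, TTTGGCGC, TTTCGCGC and TTTGCCGC), each on both strands. The Cdk4 window is shown because Cdk4 and Myc were the members furthest above normal colon in the tumours and it holds 4 E-boxes. The Cdk6 window is shown as that of the related kinase with 1 E-box, and the Cdkn2b window as that of the member that fell. Sequences run from 5′ to 3′ on the gene's strand, and capitals mark E-boxes and TCF/LEF cores.
Cdk4: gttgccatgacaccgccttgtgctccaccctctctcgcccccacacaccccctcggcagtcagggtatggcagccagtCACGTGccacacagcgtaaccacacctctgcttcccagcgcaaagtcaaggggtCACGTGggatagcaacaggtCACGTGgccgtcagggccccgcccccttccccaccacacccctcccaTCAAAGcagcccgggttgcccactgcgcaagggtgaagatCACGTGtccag
Cdk6: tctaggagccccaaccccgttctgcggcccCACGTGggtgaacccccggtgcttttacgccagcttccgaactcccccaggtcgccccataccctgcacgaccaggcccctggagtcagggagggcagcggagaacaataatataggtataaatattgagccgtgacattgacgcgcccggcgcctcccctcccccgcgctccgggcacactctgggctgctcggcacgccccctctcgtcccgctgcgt
Cdkn2b: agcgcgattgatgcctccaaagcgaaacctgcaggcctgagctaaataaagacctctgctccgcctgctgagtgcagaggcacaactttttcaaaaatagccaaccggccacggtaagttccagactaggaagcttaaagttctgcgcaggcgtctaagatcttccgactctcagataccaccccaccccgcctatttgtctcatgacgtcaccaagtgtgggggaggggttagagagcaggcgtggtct
The Cdk4 window lies at chr10:127063285-127063534 on the plus strand, the Cdk6 window at chr5:3343643-3343892 on the plus strand and the Cdkn2b window at chr4:89311033-89311282 on the minus strand. The E-boxes of Cdk4 start 172, 118, 98 and 11 bases before the annotated start, and its 1 TCF/LEF core, in reverse orientation, starts 51 bases before it. The E-box of Cdk6 starts 220 bases before 1 of its annotated starts. Of all 32851 windows of this length in the table, 6.02% held an E-box, 13.8% a TCF/LEF core and 1.86% one of the E2F spellings, and 7 windows (0.0213%) held 4 E-boxes or more. Windows of neighbouring starts can overlap. Among the members' windows, 2 of 10 held an E-box, 1 a TCF/LEF core and 1, at the upstream start of Cdkn2a, an E2F spelling. None of the 3 motifs was present in the Cdkn2b window. A match is a description of letters and not a site of binding.

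Values below are log2 signals, so a difference of 1 is 2-fold. In normal colon Myc had a signal of 6.44 in wild-type and 6.30 in F/F mice, and in tumour 8.004 and 7.62 respectively. Both tumour arrays lay above both normal arrays, with the wild-type tumour highest. The tumour exceeded normal colon by 1.56 in wild-type mice, which is 2.95-fold, and by 1.32 in F/F mice, which is 2.50-fold. A model with tissue and genotype as additive terms was fitted to all 12060 genes with at least 1 array at or above log2 4.67, the median over all genes. In it Myc rose by 1.44 in tumour (SE 0.13, 95% interval 1.09 to 1.79, limma adjusted p = 0.0109, higher in both tumour arrays).

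Cdk4, the cyclin D kinase, was at 8.16 (wild-type) and 8.03 (F/F) in normal colon and at 9.81 and 9.28 in tumour. Its range over the arrays, 1.78, was the widest of the members, and the order of the arrays was that of Myc. The difference between tumour and normal colon was 1.64 in wild-type and 1.25 in F/F mice. In the fit Cdk4 rose by 1.45, or 2.73-fold (SE 0.14, 95% interval 1.07 to 1.82, limma adjusted p = 0.0122). Cdk6, the related kinase that also pairs with D cyclins, was at 7.20 (wild-type) and 7.56 (F/F) in normal colon and at 8.20 and 8.01 in tumour. The tissues did not overlap, but the difference was 1.01 in wild-type and 0.45 in F/F mice. The fitted value of 0.73 (SE 0.17) did not pass, with a limma adjusted p of 0.0543.

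Of the 3 D cyclins, which share the kinases Cdk4 and Cdk6, Ccnd2 passed the test and the others did not. Ccnd2 was at 9.01 (wild-type) and 8.67 (F/F) in normal colon and at 9.84 and 9.81 in tumour. The tumours were nearly equal, and the F/F normal array was the lowest. The difference was 0.83 in wild-type and 1.15 in F/F mice, and Ccnd2 rose by 0.99 in the fit, or 1.98-fold (SE 0.13, 95% interval 0.64 to 1.33, limma adjusted p = 0.0192). Ccnd1 was at 7.49 (wild-type) and 7.68 (F/F) in normal colon and at 8.32 and 8.05 in tumour. Its tumour arrays were the higher in each genotype, by 0.83 in wild-type and 0.37 in F/F mice, and the fitted 0.60 (95% interval 0.18 to 1.02) did not pass. Ccnd3 was at 5.09 (wild-type) and 5.08 (F/F) in normal colon and at 5.01 and 4.99 in tumour. These values spanned 0.11, close above the median level of all genes, and the fitted difference was -0.09 (95% interval -0.53 to 0.36, limma adjusted p = 0.731).

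Of the Cip/Kip inhibitors, Cdkn1a, which p53 and differentiation signals induce, was at 9.71 (wild-type) and 9.82 (F/F) in normal colon and at 9.27 and 9.56 in tumour. Both tumour arrays were below both normal arrays, by at least 0.14. The fitted difference was -0.35 (95% interval -0.65 to -0.05, limma adjusted p = 0.0929), which did not pass. Cdkn1b, whose protein is removed by Skp2-dependent degradation, was at 7.41 and 7.40 in the normal arrays and at 6.80 and 7.27 in the wild-type and F/F tumours. The wild-type tumour stood apart and the F/F tumour was 0.13 below its normal array. The fitted -0.37 (SE 0.16, limma adjusted p = 0.177) did not pass.

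The Ink4 genes Cdkn2a and Cdkn2b are neighbouring protein-coding genes on chromosome 4 and gave differences of opposite sign. In the RefSeq table Cdkn2b lies within the span of the noncoding gene Gm12610, and whether its probe set also reads that RNA was not examined here. Cdkn2b was at 6.82 (wild-type) and 7.33 (F/F) in normal colon and at 6.20 and 6.59 in tumour. It was lower in each tumour than in either normal array, by 0.63 within wild-type and 0.74 within F/F mice. Cdkn2b fell by 0.68 in the fit (SE 0.12, 95% interval -1.01 to -0.36, limma adjusted p = 0.0315). Cdkn2a was at 4.03 (wild-type) and 3.75 (F/F) in normal colon and at 4.68 and 4.74 in tumour. Only the 2 tumour arrays reached the median level of 4.67, and by little, so this gene entered the fit through the group in which it is high and the size of its difference is uncertain. The differences were 0.65 in wild-type and 0.99 in F/F mice, and the fitted 0.82 (SE 0.24, limma adjusted p = 0.0812) did not pass. Cdkn2a encodes p16 and, from another start and reading frame, the Mdm2 inhibitor p19Arf, and which of these its probe set reads was not examined here.

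**Figure D1:**
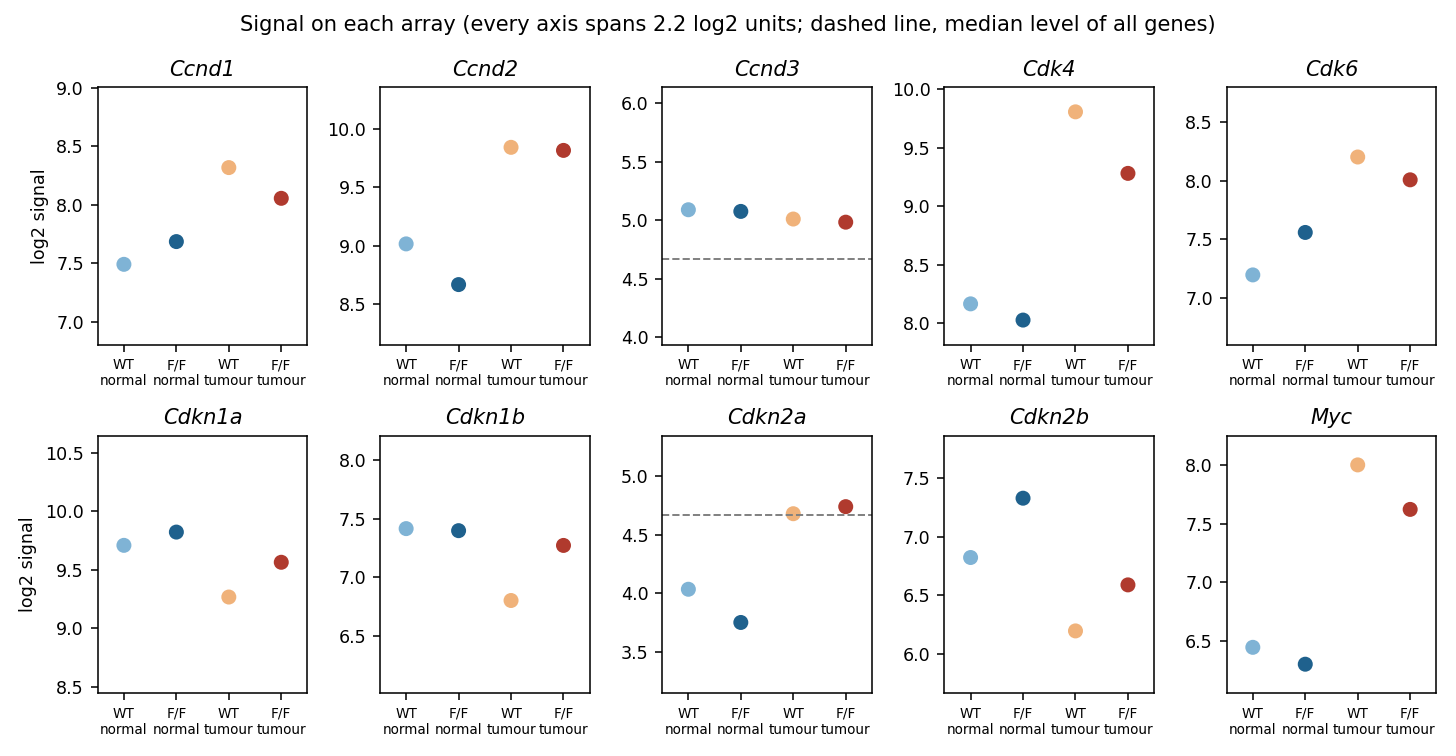
The log2 signal of each gene (vertical axis, a span of 2.2 units in every panel) on the 4 arrays (horizontal axis, 1 point per array), with the median level of all genes at 4.67 as a dashed line where it falls inside a panel. Cdk4 and Myc show the widest gaps between tumour and normal arrays, 1.12 and 1.18, and Ccnd3 is nearly flat.

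All 10 members passed the filter on level. In tumour against normal colon 3 of the 10 rose (Myc, Cdk4 and Ccnd2), where 11.0% of the 12060 genes rose. The member that fell, 1 of 10, was Cdkn2b, where 8.23% of all genes fell. The median fitted difference was 0.66 over the members and 0.07 over all genes tested. In wild-type mice 3 of 10 members (Cdk4, Myc and Cdk6) were higher by 2-fold or more and 0 lower, against 6.56% and 5.31% of all genes. In F/F mice 3 of 10 (Myc, Cdk4 and Ccnd2) were higher by that much and 0 lower, against 5.98% and 3.81%. Of the members past 2-fold in 1 genotype alone, Cdk6 was at 1.01 in wild-type and 0.45 in F/F mice, and Ccnd2 at 0.83 and 1.15, and neither difference between genotypes was tested. Cdk6 lay below 2-fold after quantile normalization (0.96), cyclic loess (0.92) and median centring (0.97). The tumour arrays did not overlap the normal arrays in 10 of 10 members, and this holds for 69.2% of all genes. They lay above in 6 members, where 40.1% of all genes did, and below in 4, where 29.2% did.

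**Figure D2:**
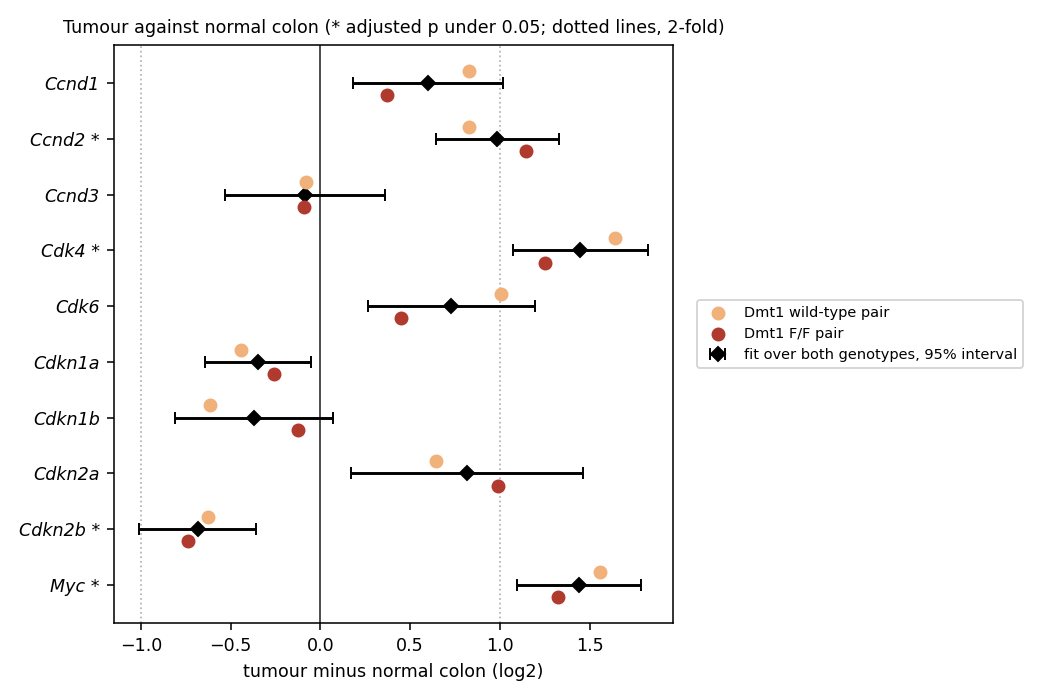
Tumour minus normal colon (horizontal axis, log2) for each gene within wild-type mice and within F/F mice (1 pair of arrays each, coloured points) and in the fit over both (black diamonds with the 95% interval of the limma fit). Myc, Cdk4 and Ccnd2 lie to the right and Cdkn2b to the left with an adjusted p under 0.05, and the F/F point lies nearer 0 than the wild-type point for Ccnd1, Cdk4, Cdk6, Cdkn1a, Cdkn1b and Myc.

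The fit has 1 residual degree of freedom, which is the tissue by genotype term, so it does not measure the spread between animals. Cdk6 passed in 3 of 8 alternative settings and Cdkn2a in 1 of 7, with limma adjusted p-values from 0.0307 to 0.0782 and from 0.0477 to 0.0928, while Myc, Cdk4, Ccnd2 and Cdkn2b passed in all 8. Over all genes 57.3% of the calls rose, and 46.4% after cyclic loess.

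The Dmt1 genotypes were compared within each tissue, with 1 array per genotype. A difference by allele cannot be told apart there from one between animals or between positions along the colon. Slc11a2, the targeted gene, had signals of 6.51 (wild-type) and 6.13 (F/F) in normal colon and 6.64 and 6.19 in tumour. The F/F array was thus the lower in each tissue, by less than 2-fold (-0.38 and -0.45). Its fitted genotype difference of -0.41 (SE 0.12, limma adjusted p = 0.564) did not pass. No member differed between genotypes by 2-fold or more in normal colon or in tumour (0 of 10 each), where 1.62% and 2.21% of all genes did. In the limma fit 0 of 10 members passed for genotype over both tissues, and 0 of 12060 genes (0%). At an unadjusted p under 0.05 there was 1 member, Cdkn2b, and 991 genes (8.22%). Cdkn2b was higher in F/F by 0.51 in normal colon and by 0.39 in tumour, and the fitted 0.45 had an SE of 0.12 (95% interval 0.12 to 0.78, limma adjusted p = 0.561, higher in both F/F arrays).

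Within the tumours the 4 inhibitors among the members differed in sign from the other 6. Each of the 6 cyclins, kinases and Myc was lower on the F/F tumour array than on the wild-type tumour array, where 53.8% of all genes were lower. Cdk4 differed by -0.53, Myc by -0.38, Ccnd1 by -0.26 and Cdk6 by -0.19, while Ccnd2 and Ccnd3 differed by -0.03 each. Each of the 4 inhibitors was higher on the F/F tumour array, where 46.2% of all genes were: Cdkn1b by 0.47, Cdkn2b by 0.39, Cdkn1a by 0.30 and Cdkn2a by 0.06. A difference as low as that of Cdk4 was found for 3.86% of all genes, and one as high as that of Cdkn1b for 7.93%. The related inhibitors outside this set did not share one sign: Cdkn1c differed by -0.25, Cdkn2d by -0.18 and Cdkn2c by 0.13. These are differences between 2 arrays with no test, and several are close to 0. The wild-type tumour array enters both this comparison and that with wild-type normal colon. The signs of the 10 members were the same after quantile normalization, cyclic loess and median centring.

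In normal colon the same split was not seen. Of the 6 cyclins, kinases and Myc, 4 were lower on the F/F array and 2 higher, and of the inhibitors 2 were lower and 2 higher, where 43.6% of all genes were lower and 56.3% higher. Cdk6 (0.36) and Ccnd1 (0.19) were higher in F/F normal colon, Ccnd2 (-0.35), Cdk4 (-0.14) and Myc (-0.14) lower. The difference of Cdkn1b there was -0.02 and that of Ccnd3 -0.01, and both change sign with the scaling.

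**Figure D3:**
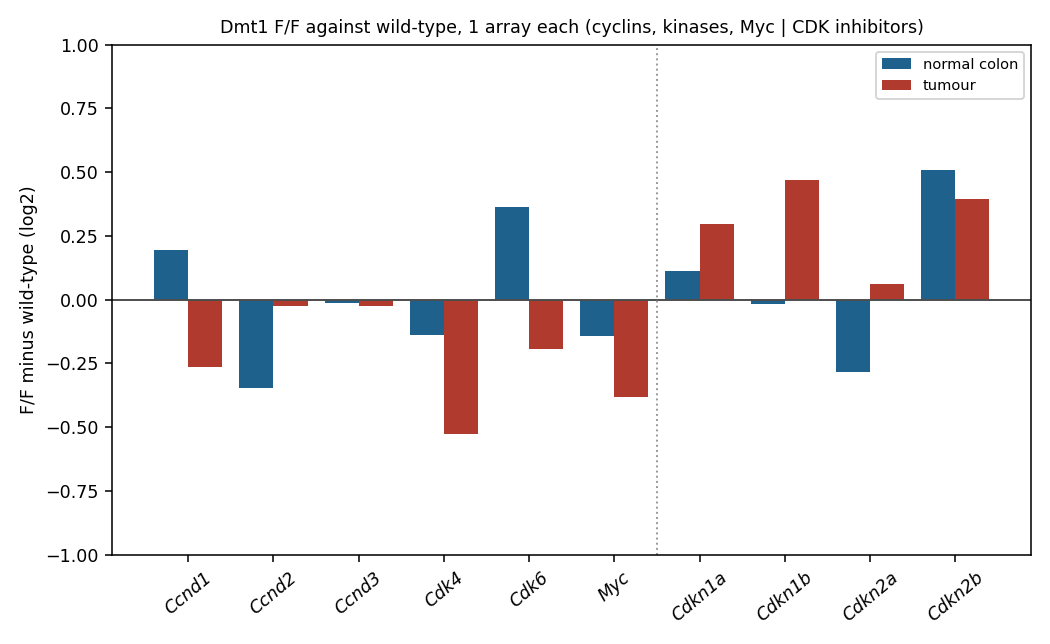
F/F minus wild-type (vertical axis, log2) in normal colon and in tumour, as bars from 1 array per group and without error, for the cyclins, kinases and Myc on the left and the CDK inhibitors on the right. In tumour the 6 bars on the left lie below 0 and the 4 on the right above it.

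Markers of other cells moved with these comparisons. The summed signal of 8 absorptive colonocyte markers, as log2, was 13.91 (wild-type) and 14.03 (F/F) in normal colon and 12.05 and 13.37 in tumour, and 8 of 8 markers were higher in the F/F than in the wild-type tumour (median 1.64). For 6 smooth muscle markers the sums were 12.87, 12.18, 11.07 and 11.71 in the same order, with 6 of 6 higher in the F/F tumour (median 0.67). The 6 neutrophil markers had sums of 7.09, 6.56, 9.89 and 8.12, with 6 of 6 lower in the F/F tumour (median -1.42). Of these, S100a8, S100a9, Csf3r and Cxcr2 reached the median level of all genes on the wild-type tumour array alone. Retnlg reached it on the tumour arrays alone, and Il1b on every array. They thus entered mostly through the array in which they are high, and the count and median are uncertain to that extent. Fibroblast markers had sums of 10.27, 9.93, 10.90 and 10.69, and macrophage markers 9.20, 8.74, 10.04 and 9.71. The B and plasma cell sums were 10.50, 9.56, 10.19 and 10.57. Most of each sum came from Jchain, at 10.33, 9.35, 10.01 and 10.11. In this list 5 of 5 markers were higher in the F/F than in the wild-type tumour (median 0.93), Ms4a1 by 2.65 and Cd79a by 1.77. Ms4a1 and Cd79b were below the median level of all genes in the wild-type tumour, so the sizes of their differences are uncertain. Goblet cell sums were 13.69, 13.73, 13.08 and 13.61. Endothelial sums were 7.82, 7.59, 8.36 and 8.43, T cell sums 7.49, 7.85, 6.88 and 7.37, and adipocyte sums 7.83, 9.09, 6.60 and 7.08. Colonocyte, goblet, smooth muscle, T cell and adipocyte sums were thus lowest in the wild-type tumour, and neutrophil, macrophage and fibroblast sums highest there. Single markers that passed the filter on level did not all follow their sum. Of the T cell markers 3 of 4 were higher in the F/F than in the wild-type tumour, but Cd3g was lower. Cd4 (4.47 in the wild-type and 5.68 in the F/F tumour) reached the median level of all genes on the F/F tumour array alone. Cd8a (4.32 and 4.65) reached it on neither tumour array, so the T cell count is uncertain to that extent. Of the adipocyte markers 2 of 3 were higher in the F/F tumour, but Plin1 was lower. Plin1 was below the median level of all genes on both tumour arrays (4.09 in wild-type and 3.76 in F/F). Retn was below that level in the wild-type tumour (4.28), so only Fabp4 was above it on both tumour arrays. Among macrophage markers 2 of 6, Csf1r and Mrc1, were higher in the F/F tumour. Among fibroblast markers 1 of 6, Lum, was higher in it, and Col3a1 and Pdgfra were nearly equal in both tumours. Of the markers measured, Cldn5, Cd3d, Adipoq and Lep did not reach the median level of all genes on any array. Which cells transcribe the members was not measured, and in bulk tissue a change in the mix of cells and a change in RNA per cell cannot be told apart. The part of these cells in the members' differences was not tested. The position of each piece along the colon is not given in the labels, and the posterior homeobox gene Hoxd13, chosen after its values were seen, was at 6.86, 3.02, 8.58 and 8.35.

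**Figure D4:**
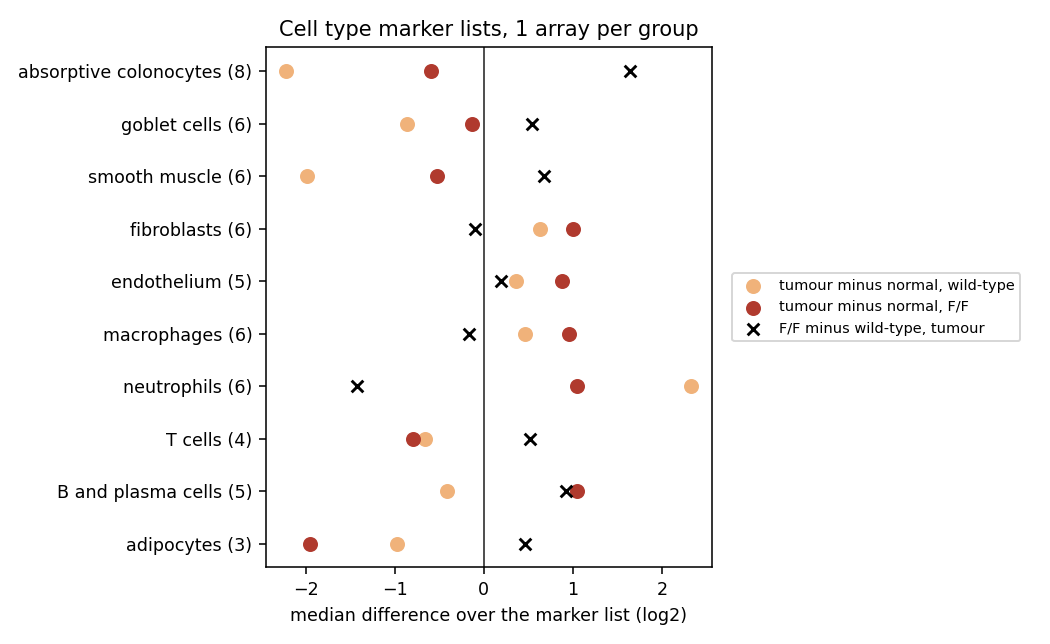
Median difference of each cell type marker list (horizontal axis, log2, number of genes in brackets) for tumour minus normal colon within each genotype (circles) and for F/F minus wild-type tumour (crosses). Colonocyte, goblet and smooth muscle medians lie further below 0 in wild-type than in F/F mice, and the neutrophil median further above 0. Of the neutrophil list, S100a8, S100a9, Csf3r and Cxcr2 reached the median level of all genes on the wild-type tumour array alone.

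Around these genes, the lists of the wider pathway differed in how much of each list rose. Counts are of listed genes that had a value and passed the filter on level. These were 16 of 18 for the retinoblastoma and E2F axis, 7 of 7 other inhibitors and 11 of 14 Myc partners. They were 17 of 18 for Myc-induced genes, 14 of 19 for the p53 pathway and 10 of 14 for p16 and Arf regulators. The Wnt list kept 10 of 12 genes and the S phase list 7 of 8. In the retinoblastoma and E2F axis with cyclin E, 2 of 16 genes rose, 0 fell and 14 did not pass, with a median of 0.12. They were Cdk2, the cyclin E kinase, by 0.68 (SE 0.12), and Tfdp1, the dimer partner of E2F, by 0.51 (SE 0.11). Among 7 other CDK inhibitors and regulators of p27 turnover 2 rose and 1 fell (median 0.07). Skp2, which marks p27 for degradation, rose by 0.91 (SE 0.13), the Cip/Kip inhibitor Cdkn1c by 0.87 (SE 0.19), and the CDK-binding Cables1 fell by 0.81 (SE 0.14). Cdkn1c was at 4.41 (wild-type) and 4.32 (F/F) in normal colon, below the filter level, and at 5.37 and 5.11 in tumour, so it entered the fit through the tumour arrays and its size is uncertain. It did not pass after quantile normalization or cyclic loess (limma adjusted p up to 0.0577).

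Partners and competitors of Myc gave 1 rise and 2 falls among 11 genes, with a median of -0.18. Mxd1 and Mxi1, which compete with Myc for Max, fell by 0.74 (SE 0.12) and 0.70 (SE 0.12), and Mga, another Max partner, rose by 0.58 (SE 0.12) but did not pass without the filter on level (limma adjusted p = 0.0516). Mycn, Mycl and Mxd3 did not reach the filter level on any array. Of 17 genes known to be induced by Myc, 8 rose, 0 fell and 9 did not pass, with a median of 0.58. The largest rises were those of the nucleolar proteins Nop56, Gnl3 and Npm1, by 1.15 (SE 0.11), 0.84 (SE 0.11) and 0.80 (SE 0.11). Among those that did not pass, the fitted differences of Odc1 and Nme1 were -0.02 each and that of Ldha was -0.21.

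In the p53 pathway, through which Cdkn1a is induced, 2 of 14 genes rose and 2 fell (median 0.10). Trp53 itself had no value here. The kinase Plk2 rose by 1.40 (SE 0.14) and Trp53inp1 by 0.49 (SE 0.11), whereas the death receptor Fas fell by 0.92 (SE 0.16) and Sesn1 by 0.74 (SE 0.16). Among 10 regulators of p16 and Arf 4 rose and 0 fell (median 0.53). The T-box repressor Tbx3 rose by 1.62 (SE 0.28), the HLH inhibitor Id2 by 1.09 (SE 0.15) and Ets2 by 1.05 (SE 0.17). Wnt feedback and target genes had the highest median, 2.32, with 9 of 10 that rose, among them Notum by 3.92 (SE 0.21), Nkd1 by 3.80 (SE 0.13) and Lgr5 by 3.32 (SE 0.13). Notum was at 3.94 (wild-type) and 2.83 (F/F) in normal colon and at 7.56 and 7.05 in tumour. Notum, Lef1 and Ascl2 were below the filter level in both normal arrays, so they entered through the tumour arrays and the sizes of their differences, with the list's count and median, are uncertain to that extent. Of 7 markers of S phase and mitosis 5 rose (median 0.75), with the helicase subunit Mcm2 at 0.87 (SE 0.16), the topoisomerase Top2a at 0.79 (SE 0.11) and the kinase Aurkb at 0.79 (SE 0.12). All these calls have a limma adjusted p under 0.05, and 11.0% of all genes rose and 8.23% fell. Of the 38 calls, 30 held after quantile normalization, cyclic loess and median centring and without the filter on level. Beside Cdkn1c and Mga, the calls of Tfdp1, Nop58, Trp53inp1 and Mki67 were lost after cyclic loess and without the filter, that of Srm there and after quantile normalization, and that of Sesn1 without the filter. Calls in the Myc-induced list thus numbered 6 after cyclic loess and 6 without the filter. The calls in the retinoblastoma and E2F list numbered 1 after cyclic loess and without the filter on level and 4, with 2 of them lower, after median centring, and those in the p53 list numbered 2 without the filter.

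**Figure D5:**
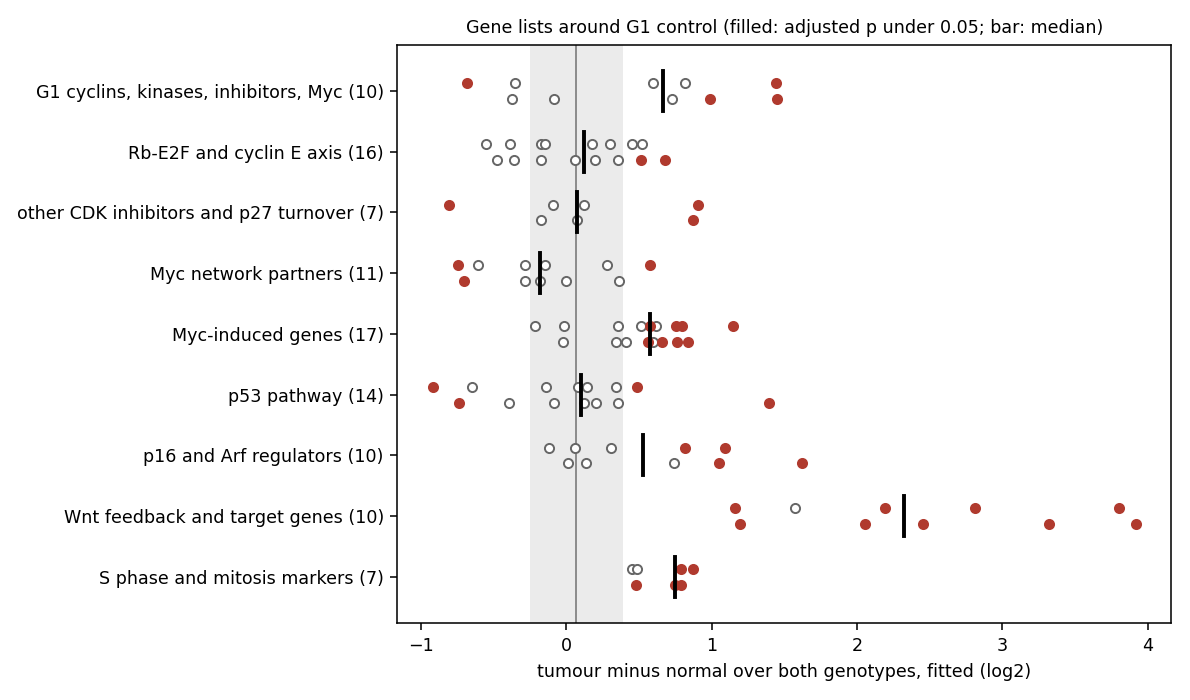
Fitted tumour minus normal difference (horizontal axis, log2) of each gene in each list, filled where the limma adjusted p is under 0.05, with the list's median as a bar, the median of all genes as a grey line and the quartiles of all genes as a grey band from -0.24 to 0.38. The Wnt list lies furthest right, and the Myc-induced and S phase lists lie right of the median of all genes at 0.07.

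The genes whose 4 values, each centred on its own mean, lay nearest to those of a member were taken for the 5 members with the widest range. For Cdk4 these were Gbp10 and Lama3, at Euclidean distances of 0.05 and 0.06 on the log2 scale. For Myc they were Zc3h12c (0.07) and Irx4 (0.10), for Ccnd2 Ccdc125 (0.02) and P2ry6 (0.03), and for Cdkn2b Nrarp (0.03) and Speer8-ps1 (0.03), a pseudogene of a multigene family whose probe set may take signal from its relatives. For Cdk6 they were the mitotic kinase gene Bub1 (0.03) and the receptor gene Ephb4 (0.03). Over 4 arrays such likeness is a description only.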

How the data were processed

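The authors deposited 1 table of log2 signals per probe set for 4 arrays (41345 probe sets), made with RMA in oligo per the submitters' processing notes (versions not stated there). RMA brings the probe intensities of the arrays to a common distribution before probe sets are summarized, and gives no detection call. The deposited values still differed in their median over all probe sets, from 4.27 (F/F normal) to 4.34 (F/F tumour). Per the labels' protocols, 400 ng of Trizol-extracted RNA were labelled. Of the probe sets, 23521 had exactly 1 gene symbol, 1814 several and 16010 none, and gene IDs of 23328 matched the RefSeq table of GRCm38.p6, used for names, for the promoter windows and for which genes are neighbours. A gene took its probe set with the highest mean. Genes reaching log2 4.67, the median over all genes, on any array were kept. Columns of other samples numbered 0.

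All kept genes on the 4 arrays entered 1 limma fit (version 3.58.1, R 4.3.3; tissue and genotype additive, eBayes with a trend, prior of 3.40 degrees of freedom, Benjamini-Hochberg at 0.05), which was tested on simulated data. Differences of 2 arrays were counted at 2-fold. Alternatives were 3 scalings, the mean of probe sets, no filter or a stricter filter, eBayes without a trend and robust eBayes, a 1.5-fold threshold, and the other genotype's normal array as baseline, the last chosen after seeing the data.

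The members, the 8 pathway lists and the 10 marker lists were chosen with earlier results of these data known. Named genes were all members, up to 3 called genes per list and direction, and the 2 nearest profiles of 5 members.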

Additional observations from a re-analysis of the deposited data

Results flagged for a closer look

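For 4 members the difference between F/F and wild-type had opposite signs in normal colon and in tumour. With 1 array per group these contrasts were not tested. For Ccnd1 the F/F array was higher by 0.19 in normal colon and differed by -0.26 in tumour, a difference between tissues of -0.46. For Cdk6 the values were 0.36 and -0.19, a difference of -0.56. For Cdkn2a they were -0.28 and 0.06, a difference of 0.34, with both normal arrays below the median level of all genes. For Cdkn1b they were -0.02 and 0.47, a difference of 0.49, and the value in normal colon changed sign in 1 of 4 alternatives.

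The B and plasma cell markers had a median tumour minus normal difference of -0.41 in wild-type and 1.05 in F/F mice, a difference of 1.46 that was not tested. Both medians are the values of Cd79b. Cd79b and Ms4a1 were below the median level of all genes on the F/F normal and wild-type tumour arrays. Of the 5 markers, 0 were higher in F/F than in wild-type normal colon (median -0.73), which enters the 1.46.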

How the results depend on the processing

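The count of 4 members called for tissue was 4 or 5 in all 8 alternatives, and that for genotype was 0 in all 8. At 1.5-fold the members apart between tumour and normal colon numbered 8 in wild-type mice (6 higher, 2 lower) and 5 in F/F mice (4 higher, 1 lower), against 3 each at 2-fold, since that threshold is lower. With the other genotype's normal array as baseline, the difference of Ccnd2 was 1.17 for the wild-type and 0.80 for the F/F tumour, that of Cdk6 0.64 and 0.81, and that of Cdkn2b -1.13 and -0.23, and the members 2-fold or more apart numbered 4 (3 higher, 1 lower) and 2 (both higher). Over all genes 57.3% of the tissue calls rose, 47.5% after quantile normalization, 46.4% after cyclic loess and 49.3% after median centring, and the median tumour minus normal difference moved from 0.07 to -0.03, -0.02 and 0.01. Genes at 2-fold or more in F/F mice were higher in 61.0% of cases, and in 51.3%, 52.8% and 52.6% under these scalings. No paired analysis was possible because the labels give no replicate numbers and each group has 1 array. For the same reason no array was left out. Signal below the median level of all genes limits Cdkn2a in normal colon.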
